A study of Homo sapiens with 6 samples.

Results

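The transcripts described here are those of 7 genes of DNA replication and cell division, TK1, RRM2, TYMS, CCNB1, TOP2A, KIF23 and CCND2, in colon fibroblasts given Sonic hedgehog (SHH), a secreted ligand of the hedgehog pathway. The genes were chosen by their differences in this same comparison. All probe sets annotated with 1 of these symbols in the authors' deposited table, which lists those with p up to 0.05, were taken, and they number 11 of the 54613 on the arrays. The 7 genes are among 1643 that can be named through that table. CCD-18Co, an established line of human colon fibroblasts that the submitters also call myofibroblasts, was kept in medium with 0.1% bovine serum albumin, and 3 cultures received SHH at 1 ug/ml for 72 h while 3 cultures were left untreated. The submitters' readme calls the untreated group vehicle, and no culture time is given for it. All 6 cultures are of this single line.

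A cell that copies its genome needs a supply of deoxynucleotides, which TK1, RRM2 and TYMS provide, and a cell that divides needs cyclin B1 (CCNB1) to enter mitosis, topoisomerase II alpha (TOP2A) to untangle the chromosomes and the kinesin KIF23 to complete cytokinesis. Transcripts of these 6 genes rise and fall with the cell cycle and are scarce in resting cells. E2F factors switch on many of the replication genes before S phase. Many mitosis genes are held by a CCAAT box, bound by NF-Y, and by the cell cycle genes homology region, bound by the MuvB complex. Cyclin D2 (CCND2) acts earlier, with CDK4 or CDK6 in G1, and is known as a hedgehog-responsive gene in mouse cerebellar granule cell precursors.

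Stretches of promoter were sought for all 7 genes and are shown for the 6 cell cycle genes, since CCND2 was not matched. The sequences are the 150 bases before the annotated transcript start, 5' to 3' on the gene's strand, from RefSeq on GRCh38.p14, and 6 of the 7 genes matched by symbol. Capitals mark matches to the motifs searched. TK1 and RRM2 have 2 starts each in the table; the start with more matches is shown, and both where they tie.
TK1, upstream start (chr17:78187205-78187354, minus strand): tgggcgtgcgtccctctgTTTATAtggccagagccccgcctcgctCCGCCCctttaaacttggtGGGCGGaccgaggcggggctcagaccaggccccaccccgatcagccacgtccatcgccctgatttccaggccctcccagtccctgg
TK1, downstream start (chr17:78187053-78187202, minus strand): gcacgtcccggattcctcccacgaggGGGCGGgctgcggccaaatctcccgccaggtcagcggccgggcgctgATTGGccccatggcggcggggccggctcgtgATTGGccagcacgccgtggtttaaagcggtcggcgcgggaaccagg
RRM2, downstream start (chr2:10122589-10122738, plus strand): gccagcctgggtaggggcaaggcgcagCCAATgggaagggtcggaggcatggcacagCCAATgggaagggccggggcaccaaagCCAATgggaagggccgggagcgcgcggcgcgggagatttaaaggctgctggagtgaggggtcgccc
TYMS (chr18:657503-657652, plus strand): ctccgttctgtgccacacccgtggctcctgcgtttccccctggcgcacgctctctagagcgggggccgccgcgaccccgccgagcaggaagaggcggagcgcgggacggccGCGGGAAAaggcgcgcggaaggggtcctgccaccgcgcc
CCNB1 (chr5:69167000-69167149, plus strand): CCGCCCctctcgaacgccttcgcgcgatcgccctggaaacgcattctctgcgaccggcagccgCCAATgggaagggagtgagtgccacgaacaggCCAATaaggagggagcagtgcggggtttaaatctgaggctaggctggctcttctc
TOP2A (chr17:40417897-40418046, minus strand): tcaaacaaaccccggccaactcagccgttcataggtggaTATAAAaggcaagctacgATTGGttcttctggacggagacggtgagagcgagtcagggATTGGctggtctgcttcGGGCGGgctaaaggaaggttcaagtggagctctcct
KIF23 (chr15:69414199-69414348, plus strand): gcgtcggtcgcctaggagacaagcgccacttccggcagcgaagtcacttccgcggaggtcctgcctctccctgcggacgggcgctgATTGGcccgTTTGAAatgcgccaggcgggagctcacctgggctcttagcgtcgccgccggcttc

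The motifs were searched on both strands: CCAAT for the CCAAT box, TTTGGCGC, TTTCGCGC, TTTCCCGC and TTTGCCGC for an E2F element, TTTGAA and TTCGAA for the cell cycle genes homology region, GGGCGG for a GC box, TATAAA for a TATA box and TGGGTGGTC for a GLI site. No matches overlapped. A CCAAT box was found before a start of 5 of the 6 genes, with 3 copies in RRM2, 2 each in TK1, CCNB1 and TOP2A and 1 in KIF23. Of the 35116 promoter stretches of the same length in the RefSeq table, 23.5% hold a CCAAT box. In KIF23 the CCAAT box ends 60 bases before the start and a match to the cell cycle genes homology region begins 55 bases before it; 7.87% of all stretches hold such a match. TYMS had no CCAAT box in this stretch and was the single gene with an E2F element as spelled here, which 1.80% of all stretches hold. Counted by stretch, with both starts of TK1 and RRM2, a CCAAT box was in 5 of the 8 stretches of these genes, a GC box in 5 of 8 against 36.8% of all stretches, a TATA box in 2 of 8 against 6.71%, and the GLI site in 0 of 8 against 0.105%. The GC box of RRM2 lies before the start not printed. The TATAAA matches begin 132 bases before the upstream start of TK1, on the opposite strand, and 111 bases before the start of TOP2A.

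**Figure D1:**
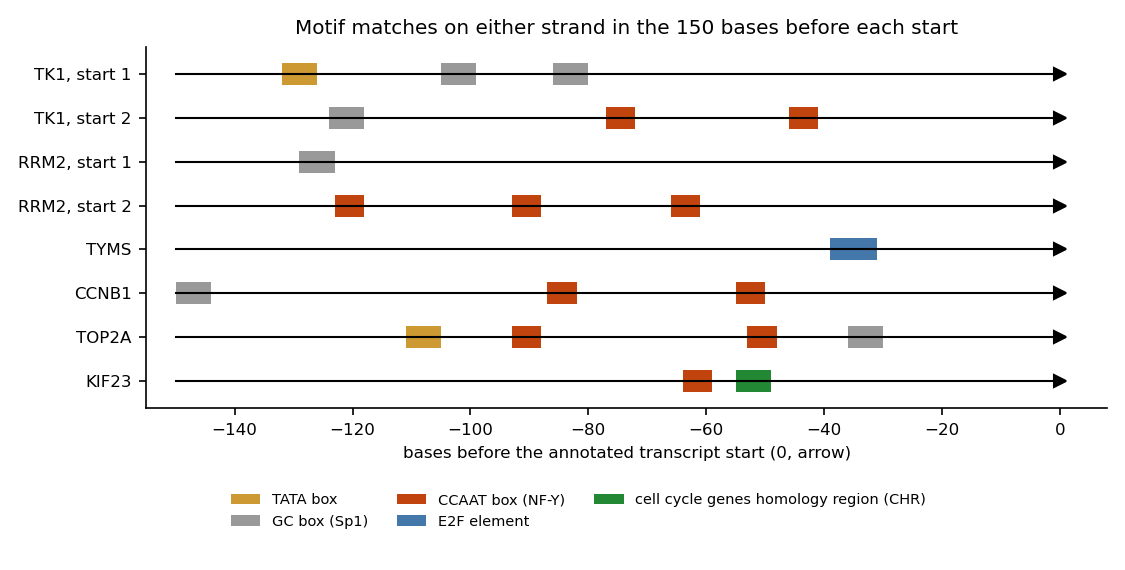
Map of the motif matches in the 150 bases before each annotated start of 6 genes; the horizontal axis gives bases before the start, the arrow is the start and each coloured block is a match on either strand. CCAAT boxes are seen in TK1, RRM2, CCNB1, TOP2A and KIF23, an E2F element in TYMS and a match to the cell cycle genes homology region in KIF23.

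Each array gave 1 signal per probe set on a linear scale, with medians of 94.4 to 111 and 2% trimmed means of 498.1 to 498.2 across arrays. Pearson correlations of the log2 signals over all probe sets lay between 0.965 and 0.970 for every pair of arrays, so no array stood apart. Precision is limited by there being 3 arrays a group. Where nothing else is said, a log2 difference is the mean of log2(signal + 16) with SHH minus that of untreated cells, and the ± behind it is limma's moderated standard error, which borrows information from the other probe sets. The added 16 makes the difference of dim probe sets smaller.

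With SHH, 9 of the 11 probe sets lay higher and 2 lower, and for each of the 11 the 3 SHH arrays and the 3 untreated arrays did not overlap. Over all probe sets, 6.97% had all SHH arrays above and 10.3% had all SHH arrays below the untreated arrays, and 42.8% were higher by any amount. None of the 11 passed limma's adjusted threshold of 0.05, which 0.123% of all probe sets passed, 0.0824% higher and 0.0403% lower. The adjusted p ran from 0.0517 to 0.401. All 11 had an unadjusted limma p under 0.05, as did 9.72% of all probe sets. Limma with an intensity trend put 6 of the 11 past the adjusted threshold and 1.86% of all probe sets, and a plain equal-variance test put 1 of them past it and 0.269% of all probe sets. Since the authors' p at or under 0.05 in this same comparison, which 4.41% of all probe sets reached, is what gave these probe sets a name, the values that follow are descriptions and none of these counts bears on the genes. In the authors' deposited table KIF23 (p = 0.0423) and the dimmer TYMS probe set (p = 0.0410) lie nearest to that limit; probe sets beyond it are not named here, so further probe sets of the same genes may be on the arrays. In a bulk culture, more cells in cycle and more transcript per cycling cell cannot be told apart.

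TK1 is thymidine kinase 1, the salvage enzyme that phosphorylates thymidine in S phase. Its brighter probe set, 1554408_a_at, gave signals of 311, 222 and 404 on the untreated arrays and 787, 698 and 690.0 on the SHH arrays. The lowest SHH array was 1.71 times the highest untreated array. Group means were 312 ± 91.0 and 725 ± 54.0 (SD, n = 3), a log2 difference of 1.21 ± 0.22 or 2.31-fold. The spread among the untreated arrays was the widest of any of the 11 on the log2 scale, and the difference was 1.00 without untreated replicate 2 and 1.41 without untreated replicate 3. The second TK1 probe set, 202338_at, was tighter, with 173, 191 and 194 untreated and 362, 398 and 362 with SHH. Its log2 difference was 0.95 ± 0.11, which is 1.93-fold. The difference between the 2 TK1 probe sets was close to the SE of the first.

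RRM2 is the small subunit of ribonucleotide reductase, which makes deoxynucleotides from ribonucleotides. Signals of its probe set 209773_s_at were 445, 480 and 547 untreated and 768, 721 and 611 with SHH. The groups came close, the lowest SHH array being 1.12 times the highest untreated array. Means were 490.4 ± 51.8 and 700.2 ± 80.4 (SD, n = 3), a log2 difference of 0.50 ± 0.14 or 1.41-fold.

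TYMS, thymidylate synthase, makes thymidylate from deoxyuridylate. Its brightest probe set, 202589_at, gave 1443, 1391 and 1367 untreated and 2044, 1875 and 1821 with SHH. Both groups were tight, and means of 1401 ± 38.9 and 1913 ± 117 (SD, n = 3) differed by 0.44 ± 0.11 on the log2 scale, 1.36-fold. The probe set 1554696_s_at gave 473, 517 and 489.8 untreated and 617, 665 and 677 with SHH. Its difference of 0.39 ± 0.11 lay within the SE of that of the first probe set.

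The remaining probe set annotated as TYMS on the array, 217690_at, went the other way. Its signals were 35.7, 42.1 and 31.7 untreated and 7.21, 4.97 and 6.305 with SHH, and its log2 difference was -1.24 ± 0.12. It is dim, at the 15.4th percentile of mean log2 signal over all probe sets, and its difference moved with the pseudocount: it was -2.39 after adding 1 and -0.52 after adding 64 to each signal. The authors' own symbol does not call it TYMS but places it 3' of a transcript they describe as rTS beta. RTS is a synonym in RefSeq of ENOSF1, a gene that overlaps the end of TYMS on the opposite strand. Which of the transcripts this probe set reads was not tested, and it is not counted as TYMS in the lists below.

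CCNB1 encodes cyclin B1, the partner of CDK1 at the entry into mitosis. Its brighter probe set, 214710_s_at, gave 494, 513 and 421 untreated and 947, 986 and 935 with SHH. The SHH arrays lay within a narrow band, the lowest of them at 1.82 times the highest untreated array. Means were 476 ± 48.6 and 956 ± 27.0 (SD, n = 3), a log2 difference of 0.99 ± 0.12 or 1.98-fold. The dimmer probe set 228729_at gave 130.0, 147 and 112 untreated and 365, 298 and 283 with SHH. Its difference was 1.19 ± 0.16, or 2.27-fold, so that both CCNB1 probe sets and both TK1 probe sets had the 4 largest differences among the 9 that were higher.

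TOP2A, the DNA topoisomerase that decatenates replicated chromosomes, was measured by 201292_at. Signals were 247, 233 and 274 untreated and 335, 425 and 407 with SHH, with SHH replicate 1 the lowest of its group. Means of 251 ± 20.5 and 389 ± 47.8 (SD, n = 3) gave a log2 difference of 0.59 ± 0.14, or 1.51-fold.

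KIF23, a kinesin of the central spindle that acts in cytokinesis, was measured by 204709_s_at at 208, 211 and 215 untreated and 414, 284 and 275 with SHH. The untreated arrays were nearly equal, while SHH replicate 1 stood well above the other SHH arrays. The means were 211 ± 3.65 and 325 ± 77.9 (SD, n = 3), and the log2 difference of 0.56 ± 0.18 became 0.38 without SHH replicate 1. The same array was the highest of its group for RRM2, the brightest probe sets of TK1 and TYMS and the dimmer one of CCNB1, and the lowest for TOP2A, CCND2 and the TYMS probe set 1554696_s_at.

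CCND2 was the single gene of the 7 that lay lower with SHH by its brightest probe set. Signals of 200953_s_at were 2582, 2731 and 2252 untreated and 1849, 1951 and 1973 with SHH, the highest SHH array being at 0.876 of the lowest untreated array. Means were 2522 ± 245 and 1924 ± 66.0 (SD, n = 3), a log2 difference of -0.38 ± 0.12 or 0.767-fold.

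**Figure D2:**
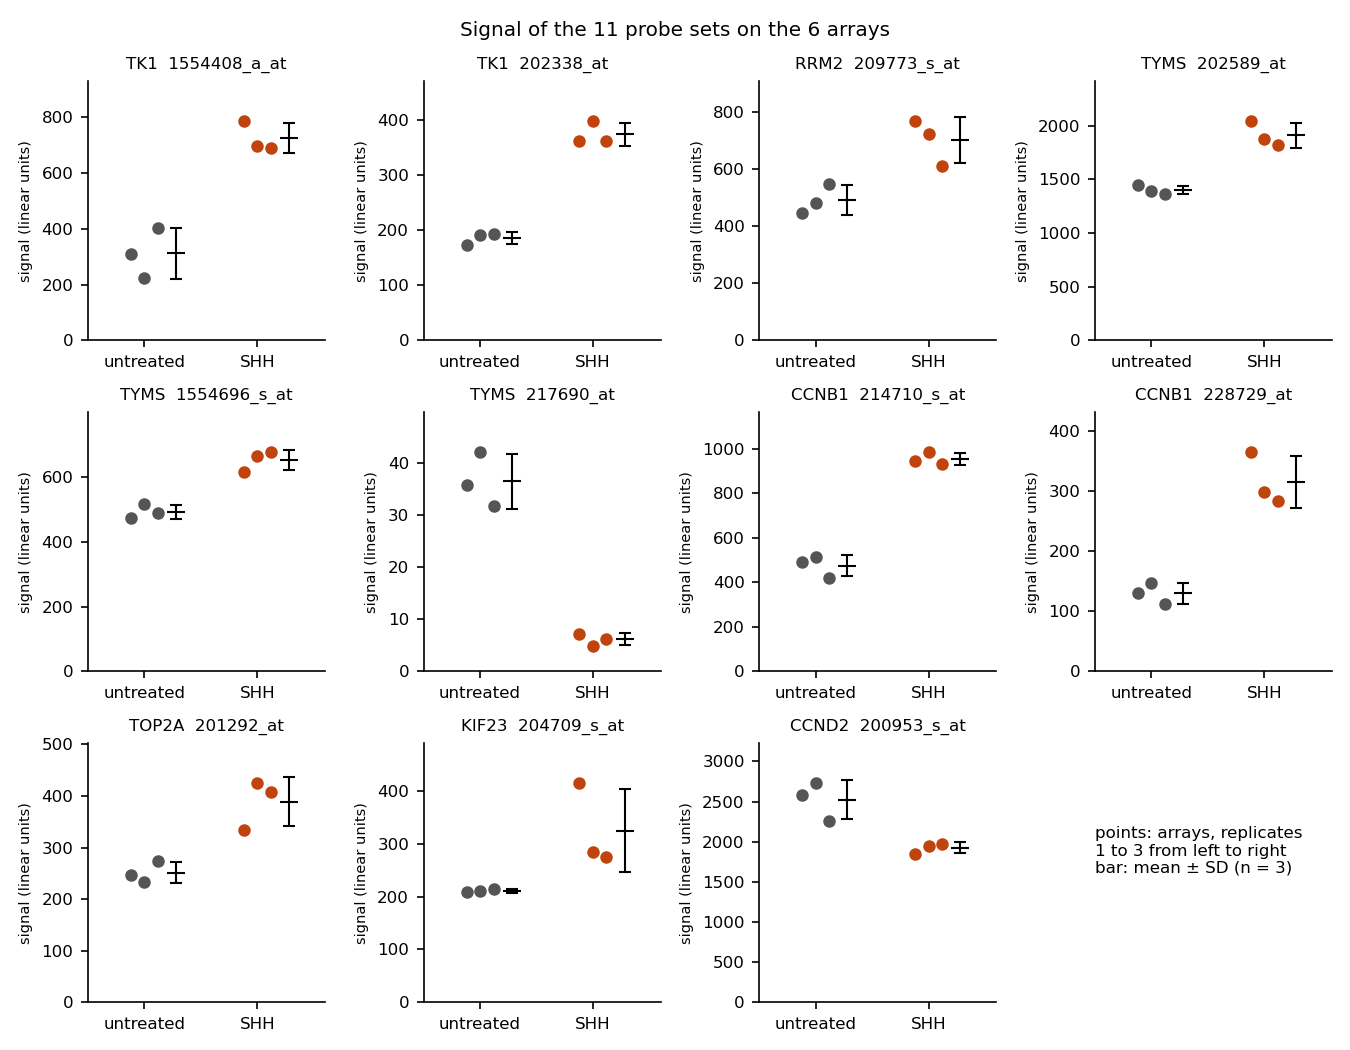
Signal in linear units (vertical axes, each starting at 0) of the 11 probe sets, 1 panel each; grey points are the 3 untreated and orange points the 3 SHH arrays, and the bar is the mean with its SD. In all 11 panels the groups do not overlap; 217690_at and CCND2 are lower with SHH and the other 9 are higher.

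**Figure D3:**
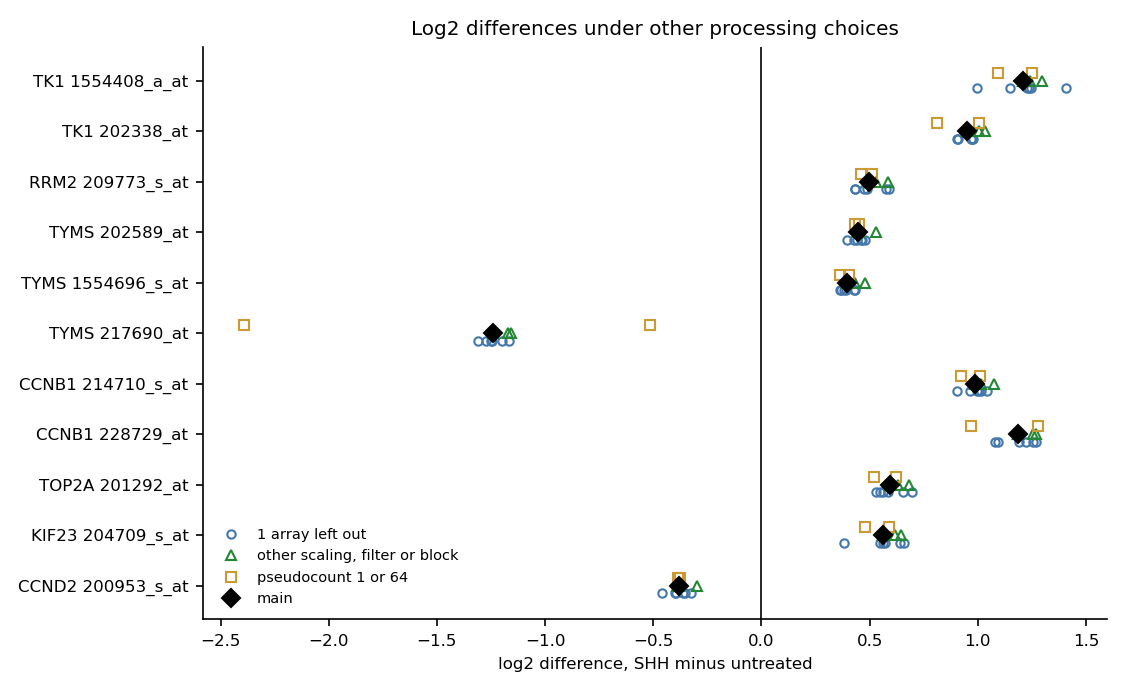
Log2 difference, SHH minus untreated (horizontal axis), of each of the 11 probe sets as reported (black) and under the other processing choices, by marker: another pseudocount, another scaling, filter or block, or 1 array left out. Since the groups of each probe set do not overlap, only another scaling could carry a value across 0, and neither of the 2 scalings did; 217690_at runs from -2.39 to -0.52 with the pseudocount, and KIF23 is at 0.38 without SHH replicate 1.

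Deviations of the log2 signals from the group means were correlated over the 6 arrays, as a description over few points that share arrays. Among the 6 cell cycle genes, each by its brightest probe set, 15 pairs gave Pearson r from -0.87 to 0.86 with a median of 0.12, and 8 of the 15 were above 0. The brightest TYMS probe set deviated with KIF23 (r = 0.86), while the TYMS probe set 1554696_s_at deviated against it (r = -0.72). The brighter TK1 probe set deviated against CCNB1 (r = -0.87) and CCND2 (r = -0.95), but the tighter one had r = -0.14 and -0.17 with them. CCND2 had r = 0.92 with the brighter CCNB1 probe set and 0.40 with the dimmer one. Probe sets of 1 gene did not always share their deviations: r was 0.62 for the 2 of CCNB1, -0.02 for the 2 of TK1 and -0.84 for the 2 probe sets that both annotations call TYMS, which are tight in both groups.

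The other genes of replication and division were read from lists of cell cycle genes, by the brightest probe set with a name. Names again exist only for probe sets with an authors' p at or under 0.05. Most genes of each list had no name and were not read, so the counts do not describe whole lists. Of all 1643 named genes 50% were higher, 47.4% had all SHH arrays above and 47.8% all SHH arrays below the untreated arrays. Among these named genes 2.43% passed limma's adjusted threshold, and their median log2 difference was -0.24. Of 52 genes of S phase and DNA replication 2 had a name and both were higher. The replicative helicase subunit MCM2 was at 417 ± 91.1 untreated and 598 ± 51.6 with SHH (SD, n = 3; log2 difference 0.52 ± 0.18). GMNN (geminin), an inhibitor of replication licensing, was at 747 ± 23.3 and 1379 ± 143 (SD, n = 3; 0.86 ± 0.12). Of 27 genes of nucleotide supply 5 had a name, 4 higher and 1 lower, with a median of 0.50. Beside TK1, RRM2 and TYMS these were PPAT, which starts purine synthesis, at 0.70 ± 0.17, and SHMT1, a cytosolic enzyme that supplies one-carbon units for thymidylate, which lay lower at -0.55 ± 0.12, its mean signal being 564 ± 30.7 untreated and 382 ± 32.2 with SHH (SD, n = 3).

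Of 76 mitosis genes 8 had a name, 6 higher and 2 lower, with a median of 0.48. Next to CCNB1, TOP2A and KIF23, the higher genes were NUSAP1, a spindle protein, at 0.70 ± 0.24, ANLN (anillin), a scaffold of the cleavage furrow, at 0.40 ± 0.11, and the chromatin protein HMGB2 at 0.34 ± 0.10. A second ANLN probe set lay at 0.57 ± 0.13. The transcription factor MYBL2, a partner of the MuvB complex at promoters of mitosis genes, was lower: its signals were 220.0 ± 35.0 untreated and 119 ± 30.1 with SHH (SD, n = 3), a log2 difference of -0.82 ± 0.20 with no overlap of the groups. WEE1, the kinase that restrains CDK1, lay at -0.47 ± 0.25, and its groups overlapped.

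Of 35 genes of the G1 cyclins, their kinases and inhibitors, RB and E2F, 5 had a name, 4 higher and 1 lower, CCND2 being the lower. CDK6, a kinase partner of cyclin D2, had 5 named probe sets, all higher, with log2 differences from 0.35 to 0.76, and the brightest of them went from 5676 ± 126 to 7252 ± 662 (SD, n = 3). The inhibitor of CDK4 and CDK6, CDKN2B, was also higher, at 0.35 ± 0.10. TFDP2, a dimer partner of E2F factors, lay at 0.42 ± 0.11 and the growth-associated transcription factor MYC at 0.38 ± 0.11. No named gene of these 4 lists passed limma's adjusted threshold; at an unadjusted limma p under 0.05 there were 2 of 2, 5 of 5, 7 of 8 and 5 of 5 genes, against 85.2% of all named genes, and with an intensity trend 1, 3, 2 and 3 passed the adjusted threshold, against 39.5% of all named genes.

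Of 27 growth arrest genes 8 had a name, 3 higher and 5 lower, with a median of -0.29. GAS1, known both as a gene of growth-arrested fibroblasts and as a hedgehog co-receptor, fell by 1.24 on the log2 scale (limma adjusted p = 0.0468), and it did not pass when any 1 array was left out (adjusted p from 0.154 to 0.201). None of the other 7 passed limma's adjusted threshold. GADD45A and GADD45B, stress-induced genes that can slow the cycle, lay at -0.29 ± 0.11 and -0.33 ± 0.12, GAS6 at -0.36 ± 0.15 and ZFP36L1 at -0.29 ± 0.12. The groups of GAS6 overlapped. Dimmer probe sets of GADD45B lay at -0.39 ± 0.11 and -0.52 ± 0.12. KLF4 at 0.57 ± 0.12, TOB1 at 0.37 ± 0.16 and KLF6 at 0.33 ± 0.13 were higher.

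**Figure D4:**
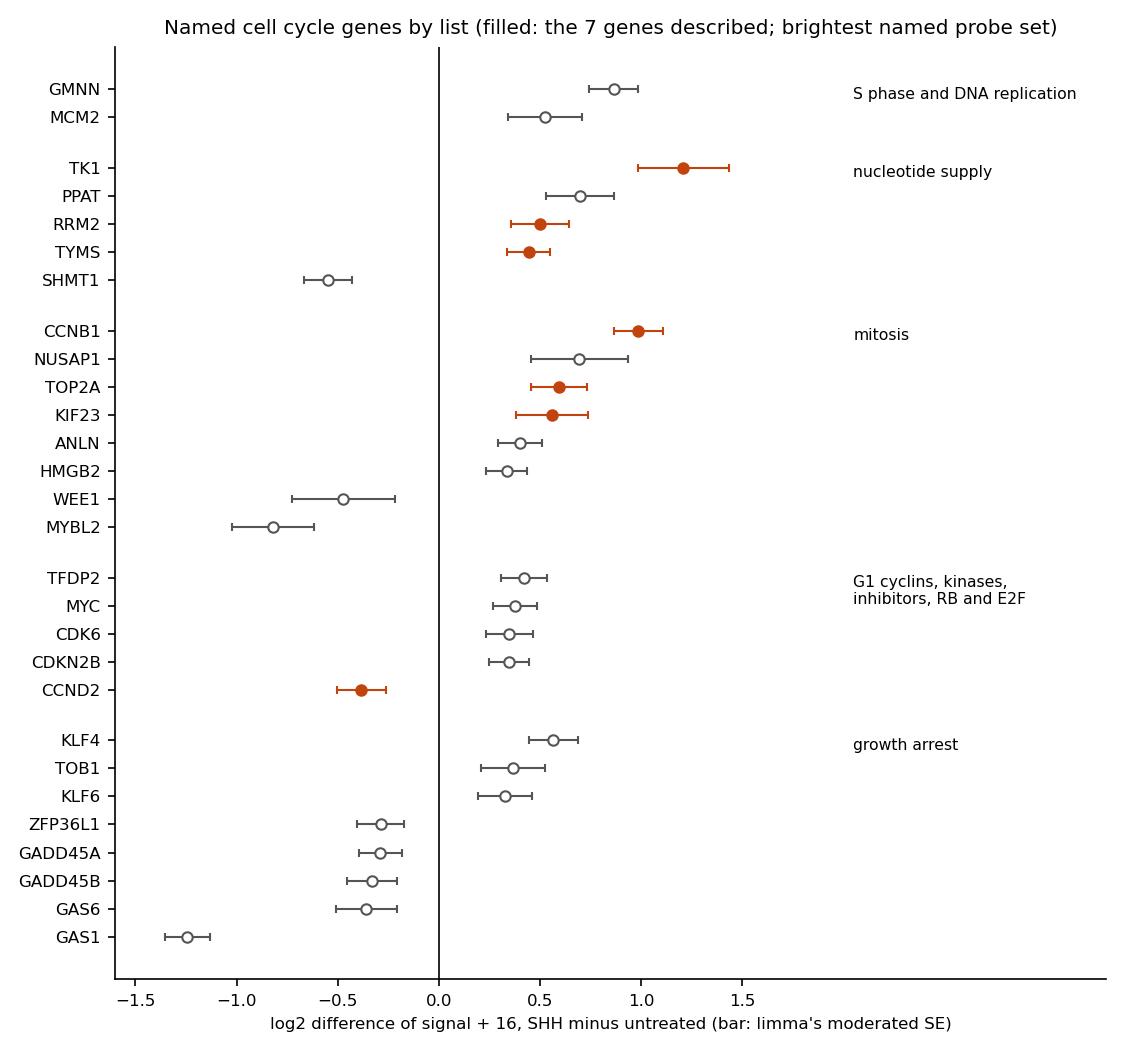
Log2 difference of signal + 16, SHH minus untreated (horizontal axis), of the named genes of 5 cell cycle lists by their brightest named probe set; bars are limma's moderated SE and filled orange points are the 7 genes described. TK1 and CCNB1 lie farthest to the right in their lists, CCND2, SHMT1, MYBL2, WEE1 and 5 growth arrest genes lie left of 0, and GAS1 at -1.24 is the single gene shown that passed the adjusted threshold.

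The named genes most like each of the 7 were sought among 1502 named genes brighter than the median, by the root mean square distance between profiles over the 6 arrays of log2(signal + 16) minus the untreated mean. No member of the cell cycle lists was among the nearest 2 of any of the 7. Few of the 1502 genes belong to these lists, so this absence says little. For CCNB1 they were PIR at a distance of 0.04 and PDE8A at 0.05, with log2 differences of 0.98 ± 0.11 and 0.93 ± 0.12. For TK1 they were NMB (0.10) and CBR3 (0.14), for RRM2 they were ID2 and PCYOX1 (0.07 and 0.08), and for TYMS they were the genes listed as KIAA1935 and KIAA0870 (0.04 each). The nearest to TOP2A were SCAP and FAT4 (0.07 and 0.08), to KIF23 FKBP1A and SBSPON (0.07 and 0.08), and to CCND2 VLDLR and UBQLN4 (0.05 each).

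Of 13 fibroblast markers 7 had a name, among them PDGFRB at 4690 ± 402 untreated and 3400 ± 309 with SHH (SD, n = 3), and 6 of the 7 were lower and 1, PDPN, higher with SHH. Their summed brightest signals lay between 14437 and 15942 untreated and between 11707 and 12994 with SHH. Among the 7, COL3A1 and DCN were read by named probe sets with untreated means of 395 and 460. Further probe sets of the markers may be on the arrays without a name. Of 5 genes of smooth muscle and myofibroblasts 2 had a name: MYH11, smooth muscle myosin, was at 786 ± 93.0 untreated and 1526 ± 214 with SHH (SD, n = 3; log2 difference 0.94 ± 0.16), and CNN1 (calponin) lay at -0.29 ± 0.13. The dimmer named MYH11 probe set had a smaller log2 difference, 0.45 ± 0.11. Markers of other cell types with a name were KRT18 of 7 epithelial genes, with signals of 5273 to 5883 untreated and 3991 to 4507 with SHH, CD14 of 4 leukocyte genes, at 102 to 208 and 250.4 to 281, UCHL1 of 4 neural and glial genes, at 3865 to 4167 and 6168 to 6527, and all 4 of the pericytes and interstitial cells of Cajal. Of these 4, RGS5, KCNJ8 and KIT lay lower, at -0.66, -0.88 and -0.44, and ANO1 higher, at 0.40, each without overlap of the groups, and their summed signals were 5137 to 5770 and 4848 to 5639. A second, dimmer ANO1 probe set lay at 0.48 ± 0.18, and its groups overlapped. None of the 4 endothelial genes had a name, and no named marker had a signal of 0. Their part in the differences of the 7 genes was not tested.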

How the data were processed

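Total RNA of 6 cultures was labelled with biotin as cRNA and hybridised to Affymetrix arrays, per the labels' protocols. Groups and replicate numbers come from the sample titles; no label says that a number marks a shared day or batch, no batch is recorded, and p-values measure the spread between these cultures. The deposited value table holds linear intensity values, 1 for each probe set on each array, whose trimmed means are nearly equal; for image analysis, probe summary and scaling by the authors, no method was given in the sources used here. The authors' deposited comparison gives a t statistic, which is a score, with a p-value, a q-value and a log2 fold change per probe set, made with Cyber-T per the deposited readme and directed untreated minus SHH per the file headers; the sign was turned here. A further 30 columns that repeat per-array values in other deposited tables were not used.

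Limma 3.58.1 in R 4.3.3 (lmFit, eBayes, two-sided, Benjamini-Hochberg over 54613 probe sets, threshold 0.05) was run on log2(intensity + 16) without a filter and was tested on simulated arrays. Tables were handled in Python 3.11.15. A probe set took a name where the array's and the authors' symbols gave 1 gene and did not disagree (2146 of 2411). Symbols were updated through RefSeq synonyms. The brightest named probe set stands for a gene. All probe sets that the authors' table of p up to 0.05 annotates with 1 of the 7 symbols are shown. Further probe sets of these genes, if on the arrays, could not be named and are not shown. The text names the 7 genes, every named gene of the cell cycle lists and the nearest 2 genes by profile. The genes and lists were chosen with earlier results of these data known. Pseudocounts, scalings, a brightness filter, variance priors, a replicate block and leaving out each array were tried as alternatives. No coordinates of probe sets are given.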

Additional observations from a re-analysis of the deposited data

How the results depend on the processing

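Because the groups of the 11 probe sets do not overlap, another pseudocount, the brightness filter, the block or a left-out array could not turn the sign of a log2 difference, and its being kept there is no sign of stability; of the 22 values under the 2 other scalings 0 reversed and 3 moved by more than 1 SD of the replicates. Over all 131 values 7 moved by more than that, among them 217690_at with both other pseudocounts. The filter on brightness removed 217690_at, which left 1 lower probe set in place of 2. For the other 10 probe sets the ranges were 1.00 to 1.41 and 0.81 to 1.04 (TK1), 0.43 to 0.59 (RRM2), 0.40 to 0.53 and 0.36 to 0.48 (TYMS), 0.90 to 1.07 and 0.97 to 1.28 (CCNB1), 0.52 to 0.69 (TOP2A), 0.38 to 0.66 (KIF23) and -0.46 to -0.30 (CCND2). The counts of genes higher and lower in the 5 cell cycle lists, mostly fixed in the same way, stayed within 1.5 times.

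Limma's adjusted threshold was passed by 67 probe sets as reported, by 0 after adding a pseudocount of 1 (5009 had an unadjusted p under 0.05), by 295 after adding 64, by 34 when each array's median was centred (32 higher and 2 lower, against 45 higher and 22 lower), by 558 among probe sets brighter than the median, where fewer are tested, by 147 in a plain equal-variance test and by 1014 with an intensity trend; it was passed by 0 without any 1 of the 6 arrays, where fewer samples remain (with 4411 to 5180 unadjusted p values under 0.05). GAS1 also did not pass with a pseudocount of 1 (adjusted p = 0.0718) or with centred arrays (0.0693). Of the 11 probe sets, 3 passed with a pseudocount of 64 and 4 with the brightness filter. With the replicate block limma called 0 probe sets (4746 at an unadjusted p under 0.05) and the adjusted p of the 11 lay between 0.434 and 0.586. The numbers were not taken as pairs because no label says that a number marks a shared day or batch. Deviations of same-numbered arrays gave r = 0.01, 0.02 and -0.01 over all probe sets, and 3 of 6 arrays correlated best with their own number. Such values do not decide the pairing, since a shared day that moved only part of the probe sets could give them. The causes of the other moves were not tested.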
